A study of Sus scrofa with 6 samples.

Results

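miR-885 is a microRNA hairpin with 2 mature products, miR-885-5p and miR-885-3p. Both were found by name in the deposited table of Rongchang pig milk and milk exosome libraries, where they are 2 of 245 distinct entries (238 distinct sequences). miR-885-5p was chosen by its deposited values in these same 6 libraries. It was listed at 0 in the 2 libraries with the most estimated reads of listed miRNAs, and above 0 in the others. Its levels are therefore a description, and no p-value is given for it, although it was 1 of the entries of a fit over the whole table. The levels of miR-885-3p, the other arm of the same hairpin, are treated in the same way.

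A miRNA hairpin is cut into a short duplex, of which 1 strand is usually kept by an Argonaute protein and guides it to messenger RNAs that pair with the seed, bases 2 to 8 of the miRNA. In humans miR-885-5p is known as a miRNA enriched in liver that rises in serum in liver disease. In human neuroblastoma cells it was described as a growth suppressor that acts through p53 and represses CDK2 and MCM5, proteins of the cell cycle and of DNA replication. In the RefSeq pig annotation (Sscrofa11.1) MIR885 lies within the span of ATP2B2, between SEC13 and SLC6A11. ATP2B2 encodes a calcium pump of the plasma membrane that in mice moves calcium across the mammary epithelium into milk, and its messenger RNA was not measured here.

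The mature sequences are shown because every value below is tied to these exact letters. They are written as deposited, 5′ to 3′, with T for U and bases 2 to 8 in capitals.
miR-885-5p: tCCATTACactaccctgcctct
miR-885-3p: aGGCAGCGgggtgtagtggat
miR-885-5p has 22 bases, of which 11 are G or C, and miR-885-3p has 21, of which 13 are G or C. RNAduplex paired the 2 arms through 19 base pairs, of which 17 were A-U or G-C and 2 were G-U, starting at base 1 of miR-885-5p and ending at its base 20.

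No other listed sequence shared the seed of either arm, so miR-885-5p stands alone in its seed group among the 238 sequences. The letters CCATTAC, searched on the given strand only, occurred in 2 of the 238 sequences (0.840%). The other was miR-451, which holds them at bases 10 to 16 and not at its seed, as the capitals show.
miR-451: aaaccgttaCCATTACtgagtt
The listed sequence nearest to miR-885-5p was miR-92a, at 8 edits, and no listed sequence came nearer than 8 edits to miR-885-3p. A second deposited sheet of 1382 entries held 3 names of miR-885 with 2 sequences. These were the pig miR-885-5p, the pig miR-885-3p and a horse miR-885-3p whose trimmed sequence is identical to the pig one. No length or letter variant of miR-885-5p was listed in either sheet.

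The study set 3 milk exosome libraries against 3 milk libraries, each small RNA of Rongchang pigs read on an Illumina HiSeq instrument. Exosomes are small vesicles shed by cells, and no label gives the age or lactation stage of the sows, the way exosomes were isolated or any treatment. The design text speaks of individuals as replicates without tying milk and exosomes of 1 number to 1 animal, and it also mentions piglet intestine, which no sample label does. Technical spread and spread between animals cannot be told apart here.

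The libraries differed in depth more than the groups did. Depth here means the estimated reads of listed miRNAs, and not all reads sequenced. With the most frequent value above 0 taken as 1 read, milk exosome 3 held 8020867 read equivalents of listed miRNAs and milk 1 held 9124580, and these are called deep. The shallow libraries were milk exosome 1 (9313), milk exosome 2 (3910), milk 2 (4348) and milk 3 (1901). Red blood cell miRNAs (miR-451, miR-144 and miR-486) took 85.8% and 85.9% of the deep libraries, and 0.462% to 7.84% of the shallow ones. Of 10 milk and mammary epithelium names, 6 were listed, and miR-200a, miR-200b, miR-200c and miR-141 were not among the entries. The listed ones summed to 3.29%, 0.230% and 0.196% of milk exosomes 1 to 3, and to 0.224%, 2.51% and 9.73% of milk 1 to 3. In the second sheet the same 6 columns of values stand under names that match no sample label. There milk exosome 3 and milk 1 share the stem MF, milk 2 and milk 3 the stem R, and milk exosome 1 and milk exosome 2 the stem WM. The stem MF cuts across the labelled groups, while R and WM each stay within 1 of them. Each group label below therefore carries some doubt, and those of milk exosome 3 and milk 1 most of all.

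miR-885-5p was a leading miRNA in milk 3, at rank 6, and stood at rank 15 in milk exosome 2. It was listed at 0 in 1 library of each group. Its deposited value, a normalized abundance, was 99.1, 786 and 0 in milk exosomes 1 to 3. It was 0, 43.0 and 1536 in milk 1 to 3. Each group thus held a high, a low and a zero library, and the groups overlapped.

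In reads, the signal of miR-885-5p was small. It came to 11, 40 and 0 read equivalents in milk exosomes 1 to 3, and to 0, 3 and 111 in milk 1 to 3. All 4 values above 0 were whole numbers of reads. The smallest entries above 0 in the deep libraries were 0.5 read equivalents, so values that low were listed there for other entries. Whether a filtering step set miR-885-5p to 0 cannot be told, because the filtering is not stated in the sources used here.

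As a share of the listed signal, miR-885-5p took 0.118% of milk exosome 1 (exact Clopper-Pearson 95% interval 0.0590% to 0.211%) and 1.02% of milk exosome 2 (0.732% to 1.39%). It took 0.0690% of milk 2 (0.0142% to 0.202%) and 5.84% of milk 3 (4.83% to 6.99%). In milk exosome 3 and milk 1 it was listed at 0, where 3 reads would be shares of 3.74e-05% and 3.29e-05%. These intervals and limits cover counting error only, because copies of 1 molecule made in PCR cannot be told from separate molecules here.

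The order of the shares ran from milk 3 through milk exosome 2 to milk exosome 1 and milk 2, with both deep libraries at the bottom. Milk exosome 2 held 0.175 times the share of milk 3 (95% counting interval 0.119 to 0.254). Within exosomes, milk exosome 2 held 8.66 times the share of milk exosome 1 (4.36 to 18.7). Milk exosome 1 and milk 2 could not be ordered at this depth, with a ratio of 1.71 (0.452 to 9.56). Within milk, the share in milk 3 was 84.6 times that in milk 2 (28.2 to 417), which rests on 3 reads in milk 2.

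In milk 3 miR-885-5p ranked 6 of 132 sequences above 0, behind miR-21, miR-148a-3p, miR-100, miR-451 and miR-191. The next sequence in that library, miR-92a, held 3.29%, against 5.84% for miR-885-5p. In milk exosome 2 it ranked 15 of 122, directly behind miR-21, which had 42 reads there, and that library was led by the muscle miRNAs miR-1 and miR-133a-3p. Its ranks were 79 of 200 in milk exosome 1 and 93 of 167 in milk 2. The 2 libraries with the highest shares, milk exosome 2 and milk 3, are those whose values stand in the second sheet under column names ending in 18; what this number means is not given in the sources used here.

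**Figure D1:**
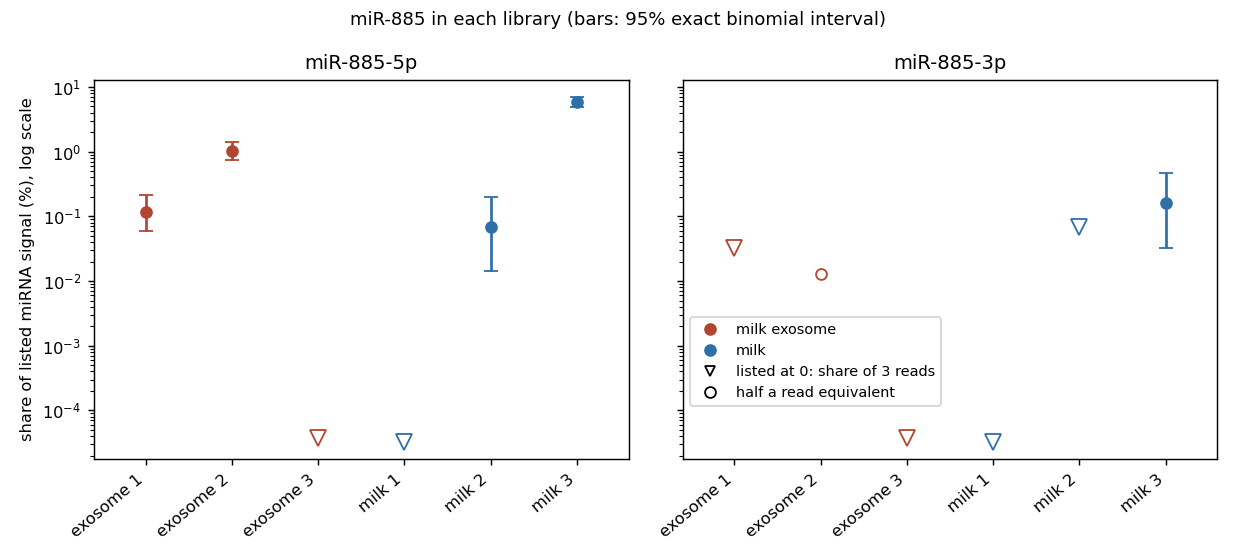
Share of the listed miRNA signal (percent, log scale) of miR-885-5p and miR-885-3p in each library, with exosome libraries in red on the left and milk libraries in blue on the right; bars are exact binomial 95% intervals and open triangles mark the share of 3 reads where the miRNA is listed at 0. miR-885-5p reaches 1.02% in milk exosome 2 and 5.84% in milk 3, and both deep libraries lie below every library with reads.

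miR-885-3p, the opposite strand of the duplex, was seen in the same 2 libraries where miR-885-5p was highest. Its value was 0, 9.83 and 0 in milk exosomes 1 to 3, which is 0.5 reads in milk exosome 2. It was 0, 0 and 41.5 in milk 1 to 3, which is 3 reads in milk 3. The 5p arm exceeded the 3p arm by 80.0 times in milk exosome 2 and by 37.0 times in milk 3, and these ratios rest on 0.5 and 3 reads of the 3p arm. At such a ratio the 11 reads of miR-885-5p in milk exosome 1 and the 3 in milk 2 leave less than 1 read for the other arm, so its listing at 0 there was not informative at this depth.

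The contrast between deep and shallow libraries, for which miR-885-5p was chosen, was wide. The lower end of the interval of each shallow share was divided by the share that 3 reads would have in the deep library of its group. The share in milk exosome 2 was at least 19567-fold higher than in milk exosome 3, and that in milk exosome 1 at least 1577-fold higher. The share in milk 3 was at least 146829-fold higher than in milk 1. Milk 2, with 3 reads, held 2099 times the 3-read share of milk 1 (counting interval 433 to 6129). Wide falls between these libraries were not particular to miR-885-5p. miR-206 took 4.65% of milk exosome 2 and 2.49e-05%, or 2 reads, of milk exosome 3. miR-133a-3p took 13.6% and 0.000131% of the same libraries, and miR-100 took 7.63% of milk 3 and 0.000258% of milk 1. Among red blood cell miRNAs, miR-451 and miR-144 moved with this contrast. miR-451 took 81.5% of milk exosome 3 and 83.0% of milk 1, and at most 6.95% of a shallow library. miR-486 did not: it took 0.442% of milk exosome 3 and 0.418% of milk 1, and 0.368% to 2.71% of the shallow libraries. With miR-451, miR-144 and miR-486 left out of every total, 1138757 reads remained in milk exosome 3 and 1284099 in milk 1. On that base the lower bounds for miR-885-5p were 2856-fold for milk exosome 2 and 225-fold for milk exosome 1 over milk exosome 3. The bound was 22430-fold for milk 3 over milk 1. Milk 2 held 313 times the 3-read share of milk 1 (counting interval 64.6 to 914). In these data fewer cells or vesicles carrying a miRNA and less of it in each cannot be told apart.

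Absence from both deep libraries was rare among the listed miRNAs. Of 238 sequences, 10 were at 0 in both, and both arms of miR-885 were among them. The other 8 were miR-133a-5p, miR-493-5p, miR-369, 2 forms of miR-7140-5p, miR-7140-3p, miR-30c-3p and a predicted arm of miR-99b. Each of these summed to at most 4.5 reads over the shallow libraries, against 165 for miR-885-5p and 3.5 for miR-885-3p. miR-885-5p was the 1 sequence of the 10 that stood above 0 in all 4 shallow libraries.

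Of the 83 sequences above 0 in all 4 shallow libraries, 82 were also above 0 in at least 1 deep library. The nearest to miR-885-5p was the muscle miRNA miR-133a-3p, with 10.5 reads in milk exosome 3 and 2 in milk 1, beside 817 over the shallow libraries. miR-149 followed with 4 reads in milk exosome 3 and 9 in milk 1, beside 10 over the shallow libraries. These values lie just outside the pattern for which miR-885-5p was chosen.

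**Figure D2:**
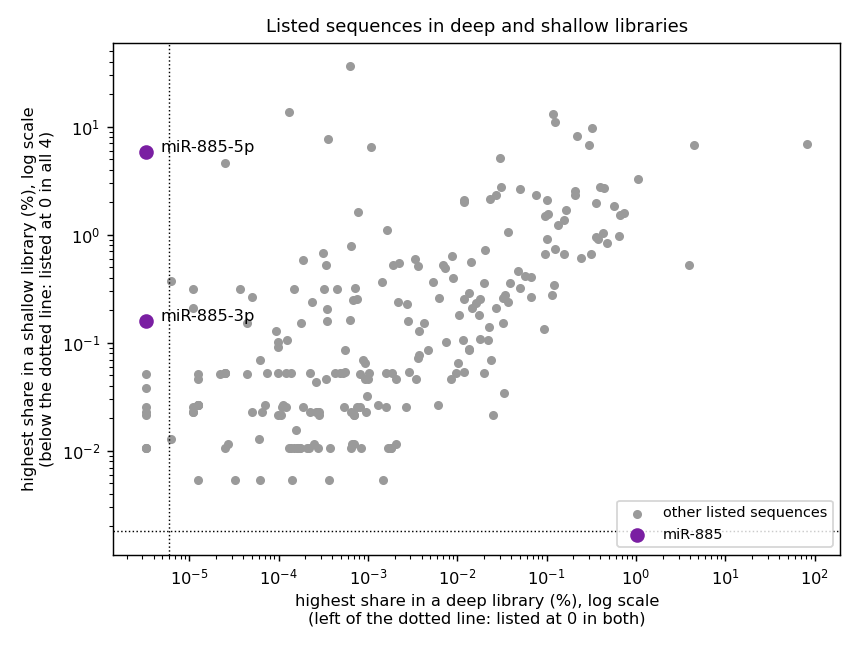
Each point is 1 of 238 listed sequences, placed by its highest share in a deep library (x axis, percent, log scale) and in a shallow library (y axis, percent, log scale), with sequences at 0 in both deep libraries left of the dotted line. miR-885-5p lies at 5.84% on the y axis and alone at that height left of the line, where miR-885-3p is next at 0.158%.

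Between the groups of the study, miR-885-5p averaged 295 ± 428 in milk exosomes and 526 ± 874 in milk (SD, n = 3 each), so each SD was larger than its mean. On the scale of log2(value + 1) the means were 5.42 in milk exosomes and 5.35 in milk, a difference of 0.07 (SE 3.30, limma fit over all entries that passed the filter). The filter, a value of 10 or more in at least 3 of 6 libraries, kept 141 of 245 entries. A read was worth a value of 9.01 to 19.7 in the shallow libraries, 0.0937 in milk exosome 3 and 0.0759 in milk 1. The added 1 and the filter value of 10 therefore stand for many more reads in a deep than in a shallow library. miR-885-5p passed the filter through shallow libraries of both groups, and miR-885-3p did not pass. The residual SD of miR-885-5p was 5.11 on the log2 scale, rank 6 of 141, against a median of 2.50.

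Over the whole table limma called 0 of 141 entries at an adjusted p of 0.05 (0% of those tested), and 0 had an unadjusted p under 0.05. The deposited values of the groups did not overlap for 2 of 141 entries (1.42%), and those of miR-885-5p did overlap. The difference for miR-885-5p turned with the libraries included. It was 2.78 without milk exosome 3 and -2.60 without milk 1, each time because a zero library was left in the other group only. Without milk 3 it was 2.69, and without milk exosome 2 it was -2.03. Among the 4 shallow libraries alone it was 0.11 (SE 2.28).

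The other mature names were ranked by the root mean square difference from miR-885-5p in log2(value + 1). Each name was centred on its own mean over the 6 libraries. The added 1 again stands for many more reads in a deep than in a shallow library. Over 220 other mature names this distance ran from 1.82 to 9.68, with a median of 4.65. The 5 nearest were miR-100 (1.82), miR-125a (1.97), miR-199a-3p (2.04), miR-365-3p (2.25) and miR-30a-3p (2.30). miR-1285, the next, was at 2.36, so the edge of this group is not sharp.

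miR-100 came closest in the libraries where miR-885-5p was high. It had 10, 36 and 28.5 reads in milk exosomes 1 to 3, where miR-885-5p had 11, 40 and 0. It had 23.5, 107 and 145 reads in milk 1 to 3, where miR-885-5p had 0, 3 and 111. miR-100, a member of the miR-99 and miR-100 family found in many cells of connective tissue and vessels, thus differed from miR-885-5p mainly in milk 2 and in being present at a low level in both deep libraries.

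miR-125a, which shares a seed with the worm miRNA lin-4, had 16, 11 and 25 reads in milk exosomes 1 to 3, and 26, 14 and 13 in milk 1 to 3. miR-199a-3p, a miRNA of mesenchymal cells, had deposited values of 75.1, 603 and 4.87 in milk exosomes 1 to 3, and 2.78, 296 and 194 in milk 1 to 3. All 5 names were above 0 in both deep libraries, where they held between 23.5 and 52 reads. These libraries share depth class and composition as well as any course of levels. All 5 names were lowest in the deep libraries, the contrast for which miR-885-5p was chosen, so nearness does not show a shared course. Over milk exosome 1, milk exosome 2, milk 2 and milk 3, miR-885-5p had values of 99.1, 786, 43.0 and 1536. There miR-100 had 90.1, 708, 1534 and 2006, and miR-125a was flatter, at 144, 216, 201 and 180. The ranking also leaned on single libraries, since 1 of the 5 names was still among the 5 nearest without milk 3 and 2 without milk exosome 2.

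**Figure D3:**
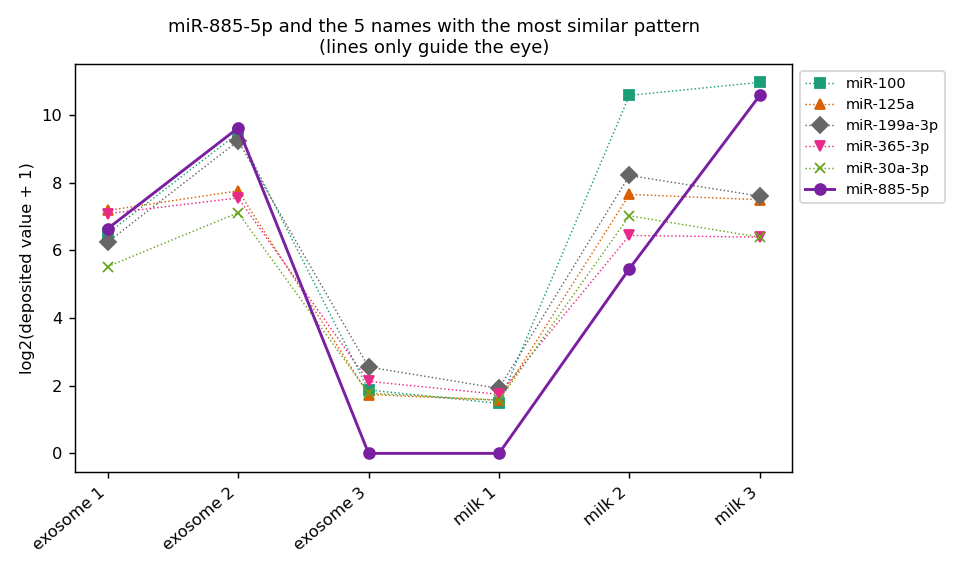
Level as log2(deposited value + 1) of miR-885-5p and of the 5 mature names nearest to it, by library, with exosome libraries left of milk libraries; lines only guide the eye. All 6 miRNAs are lowest in milk exosome 3 and milk 1, where miR-885-5p alone is at 0, and miR-885-5p and miR-100 reach the highest values in milk 3.

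Since miR-885-5p is grouped in humans with liver miRNAs, these were set beside it. Of 5 liver names, 4 were listed: miR-122, the most abundant miRNA of hepatocytes, miR-192 and miR-215, which share a seed, and miR-194, transcribed with them. All 4 were listed at 0 in milk exosome 1, milk exosome 2 and milk 3, where miR-885-5p had 11, 40 and 111 reads. There 3 reads would be shares of 0.0322%, 0.0767% and 0.158%. The 4 were above 0 in both deep libraries, where they summed to 254.5 reads in milk exosome 3 and 246.5 in milk 1, or 0.00317% and 0.00270%. In milk 2 the 4 summed to 3 reads, or 0.0690% (0.0142% to 0.202%), the same share as miR-885-5p there. The 4 zeros of each other shallow library do not show a lower liver share than in the deep libraries, because a share of the size seen there would not have been detectable.

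Among single liver miRNAs, miR-122 had 0, 0 and 3 reads in milk exosomes 1 to 3, and 25, 1 and 0 in milk 1 to 3. miR-192, the most abundant of the 4, had 0, 0 and 167 reads in milk exosomes 1 to 3, and 151.5, 0.5 and 0 in milk 1 to 3. All 4 had a higher share in milk 2 than in either deep library, from 0.5 or 1 read each. The sequence listed as miR-194a is also listed as miR-194b-5p, so its reads cannot be assigned to 1 of them.

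Of 12 neural names, 4 were listed (miR-128, miR-132, miR-218b and miR-7). They summed to 0.274%, 0.755% and 0.0516% of milk exosomes 1 to 3, and to 0.0417%, 0.333% and 0.0789% of milk 1 to 3. miR-128, a miRNA of neurons and muscle, made up 28.5 of the 29.5 neural reads of milk exosome 2, where muscle miRNAs held 55.6% of the signal. In milk 3, where miR-885-5p had 111 reads, the neural list had 1.5.

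The list of miRNAs linked to p53 had 5 of 8 names listed. miR-34a, miR-34b and miR-34c, which are direct targets of p53, were not among the entries. Its 6 sequences summed to 0.193%, 0.384% and 0.00467% of milk exosomes 1 to 3, and to 0.00360%, 1.06% and 1.79% of milk 1 to 3. In the shallow libraries nearly all of this came from miR-143-3p and miR-145-5p, a cluster of smooth muscle and stroma. miR-143-3p had 7, 5 and 62 reads in milk exosomes 1 to 3, and 69, 35 and 31 in milk 1 to 3. The p53-linked list shares miR-192, miR-194a and miR-215 with the liver list.

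**Figure D4:**
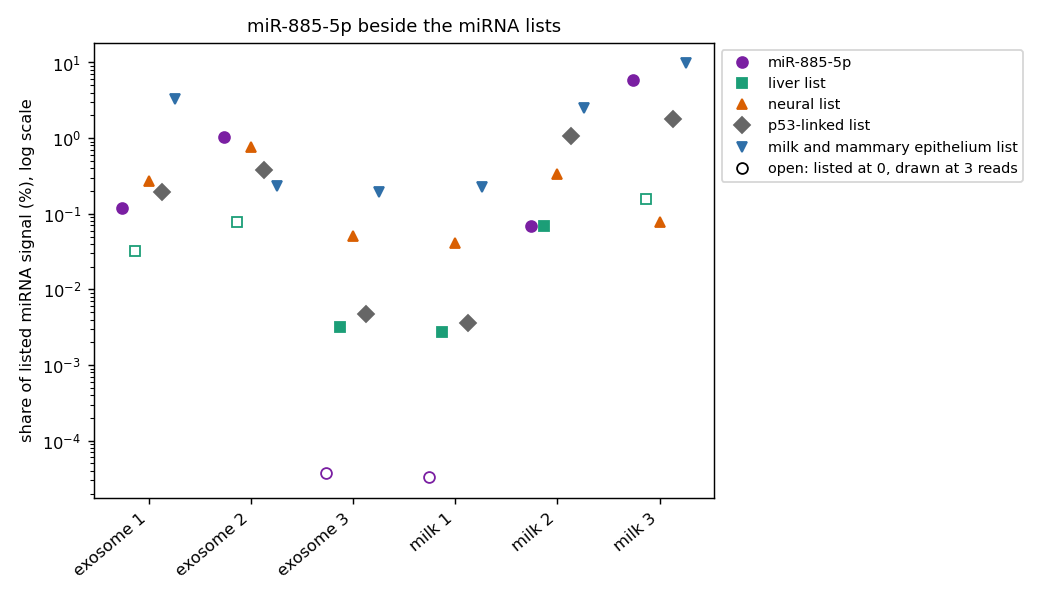
Share of the listed miRNA signal (percent, log scale) of miR-885-5p and of the summed members of 4 miRNA lists in each library, exosome libraries left of milk libraries; open symbols mark a listing at 0 and are drawn at the share of 3 reads. The liver list is open in milk exosome 1, milk exosome 2 and milk 3, where miR-885-5p holds 0.118%, 1.02% and 5.84%, and miR-885-5p is open in both deep libraries, where the liver list holds 0.00317% and 0.00270%; both are at 0.0690% in milk 2.

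The summed milk and mammary epithelium list and miR-885-5p were both highest in milk 3, at 9.73% and 5.84%. Most of the list was miR-148a-3p, with 154 of its 185 reads in milk 3 and 259 of 306 in milk exosome 1. miR-205 was highest in milk exosome 1, at 0.322% against 0.210% in milk 3. Each other sequence of the list had its highest share in milk 3. In milk exosome 2, the library with the second highest share of miR-885-5p, the milk list was at 0.230%, from 9 reads. This was near its level in the deep libraries. In milk exosome 1, where the milk list was at 3.29%, miR-885-5p was at 0.118%. Whether the content of other cell types in a library plays a part in the level of miR-885-5p was not tested.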

How the data were processed

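The authors deposited 1 normalized signal per miRNA and library, without pooling replicates. Per the labels' protocols, RNA was isolated with Trizol, prepared with a TruSeq small RNA kit and sequenced as single-end reads. How reads were aligned, normalized and filtered is not stated in the sources used here. Of 279 lines 34 exact repeats were dropped. The 6 value columns of the second sheet match no sample label and were not used as measurements. To learn what they hold, each was set against the labelled columns, and it equalled 1 of them on 245 of 245 shared entries within a relative difference of 1e-09.

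One read was taken as the most frequent value above 0 in a library. Within 0.01 reads, 70.9% to 88.0% of values were whole multiples of it, so read equivalents are estimates. Shares are of the summed signal of 238 distinct sequences, and up to 3 reads are allowed where 0 is listed. Libraries with more than 131691 read equivalents, the geometric mean of the lowest and highest, were called deep. limma 3.58.1 (R 4.3.3, intensity trend, Benjamini-Hochberg) was run on log2(value + 1). Its check on simulated data required changed entries to be found only at a spread far below the observed one. That check does not show that the fit can find changes at the observed spread. No count model was used because the values are not counts. RNAduplex 2.7.2, Python 3.11.15, numpy 2.4.6, pandas 2.3.3, scipy 1.17.1 and matplotlib 3.10.9 did the rest.

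The miRNAs described and the lists were chosen with earlier results of these data known. Named are both miR-885 arms, the 5 nearest names, sequences at 0 in both deep libraries and leading list members. miR-451 and miR-92a (by sequence), miR-149, miR-133a-3p, miR-1285 and the leaders of single libraries were named after their values were seen.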

Additional observations from a re-analysis of the deposited data

How the results depend on the processing

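The count of miRNAs past the threshold between milk exosomes and milk was 0 in limma under all 16 other settings run: a replicate block, other pseudocounts (0.1 and 10), no filter or a minimum of 100, 2 other scalings, no intensity trend, names summed, the shallow libraries alone and each library left out in turn. An unadjusted p under 0.05 was reached by 1 entry after rescaling to a common total, by 2 in the shallow libraries alone and by 5 without milk exosome 3. The log2 difference of miR-885-5p, 0.07, ranged from -0.58 (common total, where the median of all entries was -0.29, against 0.34 as deposited) to 0.11 over the 9 settings with a value that kept all libraries or the shallow ones. It ranged from -2.60 to 2.78 with 1 library left out, so its sign depended on the libraries included. None of these shifts exceeded the residual SD of 5.11, but that SD is so wide that this does not show a stable difference. With a minimum of 100 miR-885-5p passed the filter no longer and had no value. The replicate block gave 0 calls and a difference of 0.07 (SE 3.07). The deviations of same-numbered libraries had correlations of -0.25, 0.39 and -0.48 over entries. Numbers 1 and 3 each set a deep library beside a shallow one, so these correlations cannot tell whether same-numbered libraries share an animal. The numbers were not taken to pair samples, because the design text does not tie them to animals.

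With all distinct entries in the total, the shares stayed within their intervals. With the smallest value above 0 as 1 read, miR-885-5p had 22 reads in milk exosome 1, 80 in milk exosome 2, 9.58 in milk 2 and 378 in milk 3, and 0 in both deep libraries. Of the 5 names with the most similar pattern, 4 stayed with a pseudocount of 10. With 1 library left out, a setting added after the data were seen, 1 to 5 stayed. Depth limits every low value in the shallow libraries.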
